A study of Mus musculus with 12 samples.

Results

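The transcripts of 6 liver enzymes of the urea cycle and of amino acid breakdown, Cps1, Arg1, Got1, Tat, Hal and Tdo2, were followed across diet and time in a series on experimental nonalcoholic steatohepatitis in mice, a fatty liver with inflammation. They are 6 of the 2965 protein-coding rows in a table of 3717 genes, found by name, and all 6 were among the 1908 protein-coding rows with enough counts to be tested. These genes were chosen by measured values of the same 12 libraries, so their levels and differences are given as a description, and no test is drawn from them. The libraries came from livers of male C57BL/6 mice, marked WT in the sample titles. Mice received normal chow for 1 month (chow, age 3 months), the HFCF diet for 1 month (age 3 months), chow for 3 months (age 6 months) or HFCF for 3 months (age 6 months), with 3 libraries in each of the 4 groups. The labels do not spell out HFCF or say whether a library was made from 1 liver. Time on a diet and age moved together, so that they cannot be told apart.

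Amino acids that are burnt or turned into glucose lose their nitrogen in the liver. Aminotransferases pass it to glutamate and aspartate, and the urea cycle of hepatocytes, most active around the portal vein, turns the resulting ammonia and aspartate into urea. Separate pathways then take apart the carbon skeletons, and several of their first enzymes are well known for their response to glucocorticoids, glucagon and dietary protein.

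The labels' protocol names a small RNA library kit and the design text a stranded total RNA kit, so whether the protein-coding counts come from short fragments of mRNA or from total RNA is not settled by these sources. The table held 2539388 to 5255906 counts per library, of which 619160 to 1376517 fell in protein-coding rows. Rows whose exons overlap a small RNA gene took 88.6% to 93.4% of these, and none of the 6 genes is such a row. No other annotated gene lies on the exons of the 6. Their summed counts ran from 467 to 2953 per library. Levels are CPM, the share of a library's protein-coding counts, scaled by the TMM method. If they are fragments, the amount of an mRNA and how it broke down cannot be told apart, and in either case fewer cells of a type and less RNA per cell cannot be told apart.

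The markers of hepatocytes, the cells that carry these pathways, were all present, 10 of 10 in the table. Their summed level was 4680 to 7708 CPM over the 12 libraries. At 3 months it was 5088 to 5541 CPM in chow and 4827 to 5002 CPM in HFCF, so that all 3 HFCF libraries lay slightly below chow. At 1 month the sum was 5237 to 7708 CPM in chow and 4680 to 5341 CPM in HFCF, and the median log2 fold change of the 10 markers was -0.36, against -0.03 at 3 months. None of the 10 markers passed the test at either time. None of the 5 lymphocyte markers and none of the 6 pancreas markers was in the table. Of 11 macrophage markers, 6 were in the table. Their median summed level at 3 months was 25.5 CPM in chow (18.7 to 30) and 54.9 CPM in HFCF (25.3 to 56.3). At 1 month the ranges were 24.4 to 30.5 CPM in chow and 15.2 to 37.7 CPM in HFCF. Cd74, 1 of the 6, was at 1.96 to 6.26 CPM in chow and 6.33 to 17.3 CPM in HFCF at 3 months (edgeR adjusted p = 0.132). An exon of Cd74 overlaps the gene of the miRNA Mir5107, and reads of the pair cannot be told apart here. Lyz2 and Spp1 have no small RNA gene on their exons and had too few counts to be tested. At 3 months Lyz2 was at 0 to 2.95 CPM in chow and 4.22 to 10.4 CPM in HFCF. Spp1 was at 0 to 1.25 and 4.22 to 11.4 CPM. The diets overlapped in Csf1r (2.95 to 8.76 and 2.11 to 8.66 CPM) and in Cd5l (1.7 to 11.3 and 8.44 to 13.7 CPM). Clec4f, which marks resident macrophages, was at 0 in 1 chow and 2 HFCF libraries at 3 months. Of 8 stellate cell and fibroblast markers, 3 were in the table, and their sum was 39.1 to 48.1 CPM in chow and 41.2 to 69.7 CPM in HFCF at 3 months. At 1 month it was 27 to 43.9 CPM in chow and 51.2 to 82.6 CPM in HFCF, which did not overlap. Dcn, a matrix gene of that list, rose with HFCF at 1 month (log2 fold change 1.01, edgeR adjusted p = 0.0175). Col3a1, another gene of that list, overlaps the small RNA gene Gm47302 on an exon. The part of these cell types in the results below was not tested.

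Per length, the order of the 6 transcripts ran from Cps1 to Hal. In the authors' deposited FPKM values, the mean over 12 libraries was 30.4 for Cps1, 19.4 for Tat, 16.5 for Arg1, 16.0 for Tdo2, 5.77 for Got1 and 1.69 for Hal. Among 2813 protein-coding rows that overlap no small RNA gene, Cps1 held rank 28 by this mean, Got1 rank 102 and Hal rank 402. In chow at 1 month, Cps1 was at 54.9 ± 11.6 FPKM (SD, n = 3), with a range of 45.3 to 67.8 that met the upper end of Tat, at 24.8 to 52.0. Tat, Tdo2 and Arg1 were not separated there, since the FPKM values of Tdo2 ran from 17.9 to 38.1 and those of Arg1 from 19.8 to 39.3. Got1, at 7.15 to 15.4 FPKM, lay below these 4, and Hal, at 1.95 to 3.68 FPKM, below Got1. After 3 months on HFCF the FPKM of Cps1 was 10.4 ± 3.71 and that of Tdo2 9.54 ± 1.60, and the ranges of Cps1, Tdo2 and Arg1 overlapped. By that group's mean the rank among the 2813 rows was 52 for Cps1, 413 for Got1 and 1015 for Hal.

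The first step of the urea cycle is catalysed by carbamoyl phosphate synthetase, the mitochondrial enzyme that joins ammonia and bicarbonate. Its gene, Cps1 (ENSMUSG00000025991), spans chr1:67123026-67231259 on the + strand of mm10, and its transcript had the highest mean FPKM of the 6 in each of the 4 groups. After 1 month the Cps1 level was 886, 1123 and 1109.6 CPM in chow replicates 1, 2 and 3, and 936, 572 and 695 CPM in HFCF. After 3 months it was 626, 645 and 745 CPM in chow, and 323, 214 and 196 CPM in HFCF. At 1 month HFCF replicate 1 stood inside the chow range and the other 2 HFCF libraries below it, whereas at 3 months every HFCF library was below every chow library. The HFCF level differed from chow by a log2 fold change of -0.50 ± 0.22 (SE) at 1 month and -1.46 ± 0.23 at 3 months, which at 3 months is 63.7% less than in chow.

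Arginase 1 cleaves arginine into ornithine and urea, the last step of the cycle. The Arg1 gene (ENSMUSG00000019987) lies at chr10:24915208-24927470, on the - strand. The Arg1 level at 1 month was 125, 173 and 129 CPM in the chow libraries, and 129, 77.5 and 81.7 CPM in the HFCF libraries. At 3 months it was 95.3, 103 and 96.3 CPM in chow, and 63.3, 50.3 and 42.4 CPM in HFCF. Chow libraries at 3 months were close together, within 95.3 to 103 CPM, and all 3 HFCF libraries lay under them. The log2 fold change of Arg1, HFCF over chow, was -0.57 ± 0.22 at 1 month and -0.92 ± 0.24 at 3 months.

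Got1 encodes the cytosolic aspartate aminotransferase, which exchanges nitrogen between glutamate and aspartate, which carries the other nitrogen into the cycle. The gene (ENSMUSG00000025190) lies at chr19:43499752-43524605, on the - strand. In chow at 1 month Got1 was at 77.6, 116 and 80.0 CPM, against 86.9, 51.0 and 64.4 CPM in HFCF. By 3 months its level was 45.9, 60.1 and 58.0 CPM in chow, and 27.4, 10.3 and 11.3 CPM in HFCF. HFCF replicate 1 was the highest of its group at both times, and at 3 months it still lay below the lowest chow library. These last levels rest on few reads: the counts of Got1 in the HFCF libraries at 3 months were 26, 9 and 13, and counting error alone puts the count of 9 between 4.12 and 17.1 (95% Poisson interval). Such intervals cover counting error only. The log2 fold change was -0.44 ± 0.24 at 1 month and -1.76 ± 0.31 at 3 months, the lowest of the 6 at that time and place 9 from the lowest among the 1908 tested rows.

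Tyrosine aminotransferase starts the breakdown of tyrosine and is a classic glucocorticoid-induced enzyme of the liver. Its gene, Tat (ENSMUSG00000001670), lies at chr8:109990437-109999803 on the + strand. Tat at 1 month was at 230.5, 373 and 263 CPM in chow and at 314, 161 and 195 CPM in HFCF. For 3 months the levels were 148, 161.5 and 161 CPM in chow and 62.3, 91.5 and 52.8 CPM in HFCF. The 1-month groups overlapped widely, with SDs of 74.4 and 80.4 CPM, and the 3-month groups did not meet. Its log2 fold change was -0.37 ± 0.23 at 1 month and -1.20 ± 0.25 at 3 months.

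Histidine ammonia-lyase removes the amino group of histidine, the first step of that pathway, and Hal (ENSMUSG00000020017) spans chr10:93488768-93519304 on the + strand. Its level at 1 month was 52.3, 60.9 and 47.8 CPM in chow, and 35.4, 53.0 and 24.9 CPM in HFCF. At 3 months chow libraries had 28.9, 57.6 and 50.1 CPM of Hal, and HFCF libraries 23.2, 14.9 and 8.66 CPM. Chow replicate 1 at 3 months, the library with the fewest counts, was low in Hal and stood close to the highest HFCF library. The log2 fold change of Hal was -0.54 ± 0.26 at 1 month and -1.60 ± 0.32 at 3 months, on counts of 10 to 22 in the HFCF libraries.

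Tryptophan 2,3-dioxygenase opens the ring of tryptophan and commits it to the kynurenine pathway in the liver. Tdo2 (ENSMUSG00000028011) lies at chr3:81957090-81976202 on the - strand. After 1 month the Tdo2 level was 365, 439 and 305 CPM in chow and 268, 195 and 168 CPM in HFCF. After 3 months it was 228, 222 and 262 CPM in chow and 172, 153 and 145 CPM in HFCF. All HFCF libraries were below all chow libraries at both times, and the difference between the group means was smaller at 3 months. Tdo2 thus had its lower log2 fold change at 1 month, -0.82 ± 0.21, and a value of -0.60 ± 0.22 at 3 months, unlike the other 5.

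**Figure D1:**
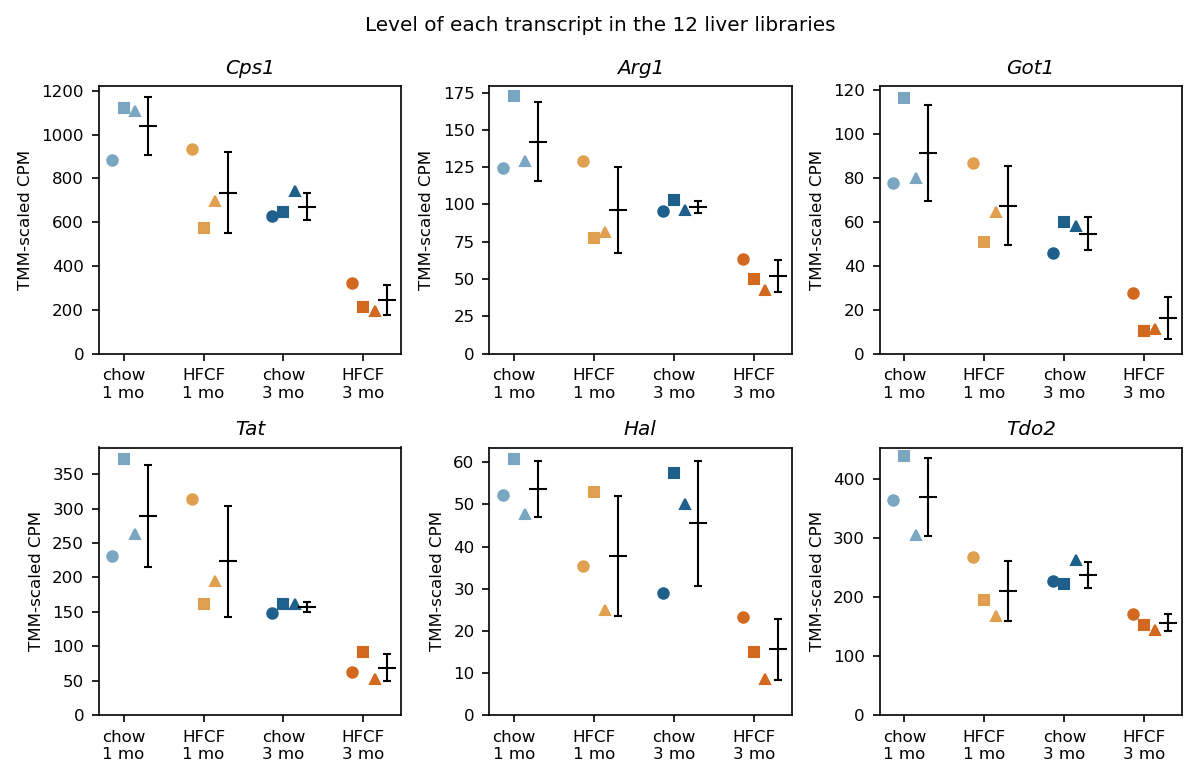
Level of the 6 transcripts, in TMM-scaled CPM on a linear axis from 0, in each library of the 4 groups; circles, squares and triangles are replicates 1, 2 and 3, and the bars are mean ± SD (n = 3). At 3 months the HFCF points lie below the chow points in all 6 panels, and at 1 month only in the Tdo2 panel.

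Upstream sequence is shown for the members whose RefSeq start is preceded by bases outside any annotated exon. Motifs of factors known for these genes can be read there, and their part in the levels was not tested. The table of RefSeq promoters used here (GRCm38.p6) matched 4 of the 6, and Got1, Tat and Hal are printed. The window of Tdo2 lies on an exon in GENCODE, and Cps1 and Arg1 are named only. The windows are the 250 bases before the RefSeq start, chr19:43524606-43524855 on the - strand for Got1, chr8:109990186-109990435 on the + strand for Tat and chr10:93488518-93488767 on the + strand for Hal. Capitals mark a match, on either strand, to TGACG (part of the cAMP response element), AGAACA (part of the glucocorticoid receptor's site), GCAAT (part of the C/EBP site) or CAAAG (part of the HNF4 site).
Got1: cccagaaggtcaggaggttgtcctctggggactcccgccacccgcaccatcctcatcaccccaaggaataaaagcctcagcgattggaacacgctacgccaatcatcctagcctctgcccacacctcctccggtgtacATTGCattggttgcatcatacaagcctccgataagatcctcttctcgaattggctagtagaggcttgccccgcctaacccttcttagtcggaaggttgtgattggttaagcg
Tat: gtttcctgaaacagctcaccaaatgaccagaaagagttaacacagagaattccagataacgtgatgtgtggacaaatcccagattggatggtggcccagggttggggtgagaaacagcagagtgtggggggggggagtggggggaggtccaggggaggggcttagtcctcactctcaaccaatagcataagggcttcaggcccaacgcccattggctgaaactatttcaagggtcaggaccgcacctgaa
Hal: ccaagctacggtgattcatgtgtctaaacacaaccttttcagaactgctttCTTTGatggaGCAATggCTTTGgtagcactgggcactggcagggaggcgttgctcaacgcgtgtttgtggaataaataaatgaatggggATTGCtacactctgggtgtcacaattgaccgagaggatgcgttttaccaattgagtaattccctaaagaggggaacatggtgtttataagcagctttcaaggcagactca
Got1 held 1 match to GCAAT, Hal held 2 to GCAAT and 2 to CAAAG, and the Tat window held none of the 4 motifs. No capitals overlap between motifs. Of 2195 promoters of protein-coding genes in the table, 18.6% held GCAAT, 44.8% held CAAAG, 26.7% held TGACG and 11.1% held AGAACA in a window of the same length. The letters describe these windows only.

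As a group, the 6 transcripts had a median log2 fold change, HFCF over chow, of -0.52 at 1 month and -1.33 at 3 months, against -0.02 and 0.01 over all 1908 tested rows. At 1 month the HFCF libraries of 1 transcript, Tdo2, lay wholly below chow, where 6.76% of all tested rows did so. Of the 6, 1 passed edgeR's quasi-likelihood test at a Benjamini-Hochberg adjusted p under 0.05 at 1 month, again Tdo2; 1.31% of all tested rows passed, and 0.577% passed as lower. At 3 months all 6 were wholly below chow, where 10.3% of all rows were, and 5 of 6 passed, all but Tdo2, where 1.83% of rows passed and 1.26% passed as lower. Nothing is read from these counts, since the genes were chosen with these values in view. They depended on single libraries and on the fit. Tdo2 did not pass at 1 month without chow replicate 2 or HFCF replicate 2 or 3 of that time, nor without chow replicate 1 or 3 or HFCF replicate 3 of 3 months. It also did not pass with all genes in 1 fit, with scaling to the hepatocyte markers or with only the libraries compared. At 3 months, without HFCF replicate 3, Cps1 and Got1 alone passed, and without HFCF replicate 2 or any 1 of the 3 chow libraries Arg1 did not. Arg1 did not pass either with all genes in 1 fit or with scaling to the hepatocyte markers. With only the libraries compared all 6 passed, where 72 of 1240 tested rows did, 37 of them lower. Hal was not tested at a filter of 50 CPM. Without TMM scaling none of the 6 passed at 1 or 3 months. The median of all rows at 3 months then moved to 0.31 and the median of the 6 was -1.03.

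**Figure D2:**
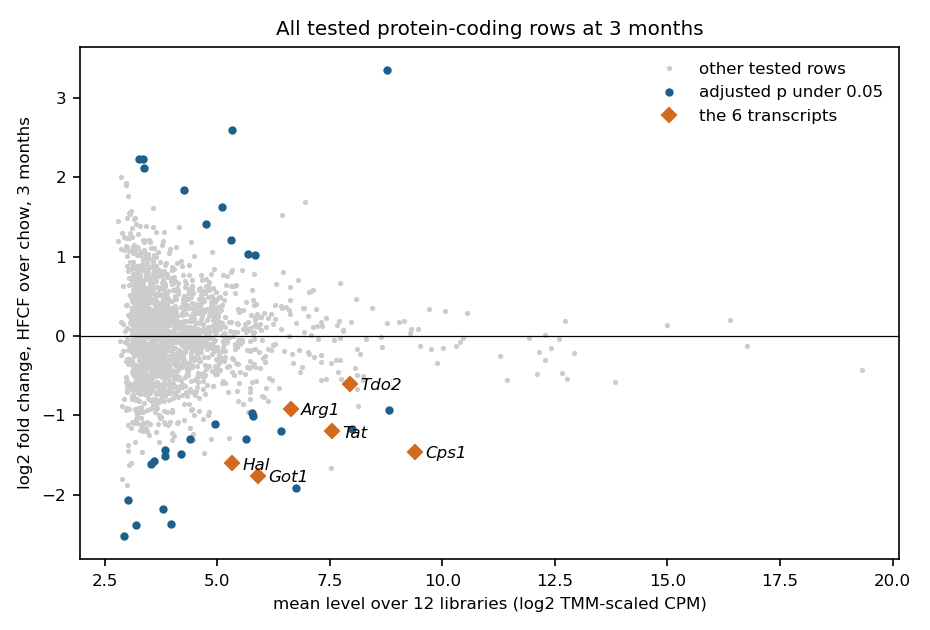
Log2 fold change, HFCF over chow, at 3 months against the mean level over 12 libraries (log2 TMM-scaled CPM) for the 1908 tested rows; diamonds are the 6 transcripts and blue points the other rows with an adjusted p under 0.05. The 6 lie between -1.76 (Got1) and -0.60 (Tdo2) on the vertical axis.

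In 4 of the 6 transcripts (Cps1, Arg1, Got1 and Tat) HFCF replicate 1 was the only HFCF library of 1 month inside the chow range; in Hal it was replicate 2. Libraries tended to be high or low in several of the 6 at once. Chow replicate 2 at 1 month was above its group mean in 6 of 6 transcripts, by 0.27 on the log2 scale on average, and HFCF replicate 1 was above it in 5 of 6 at 1 month (0.35) and at 3 months (0.36). HFCF replicate 3 at 3 months was below its group mean in 6 of 6, by -0.33 on average. The median difference of the 6 at 1 month was -0.69 without HFCF replicate 1, -0.38 without HFCF replicate 2, -0.41 without HFCF replicate 3 and -0.40 without chow replicate 2. With scaling to the hepatocyte markers it was -0.15.

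The summed level of the 6 stood at 1736, 2285 and 1935 CPM in chow and 1770, 1109 and 1229 CPM in HFCF at 1 month. At 3 months the sum was 1173, 1248 and 1372 CPM in chow, and 671, 534 and 456 CPM in HFCF. Set against the hepatocyte markers of the same library, there were 21.2, 24.5 and 25.2 counts of the 6 per 100 marker counts in chow at 3 months, and 13.6, 11.1 and 9.11 in HFCF. The groups did not overlap on that scale either. At 1 month the same ratio was 22.5, 33.8 and 37.0 in chow and 35.5, 23.7 and 23.01 in HFCF, and the HFCF range lay inside the chow range: chow replicate 1, whose marker sum of 7708 CPM was the highest of the 12, had the lowest ratio.

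**Figure D3:**
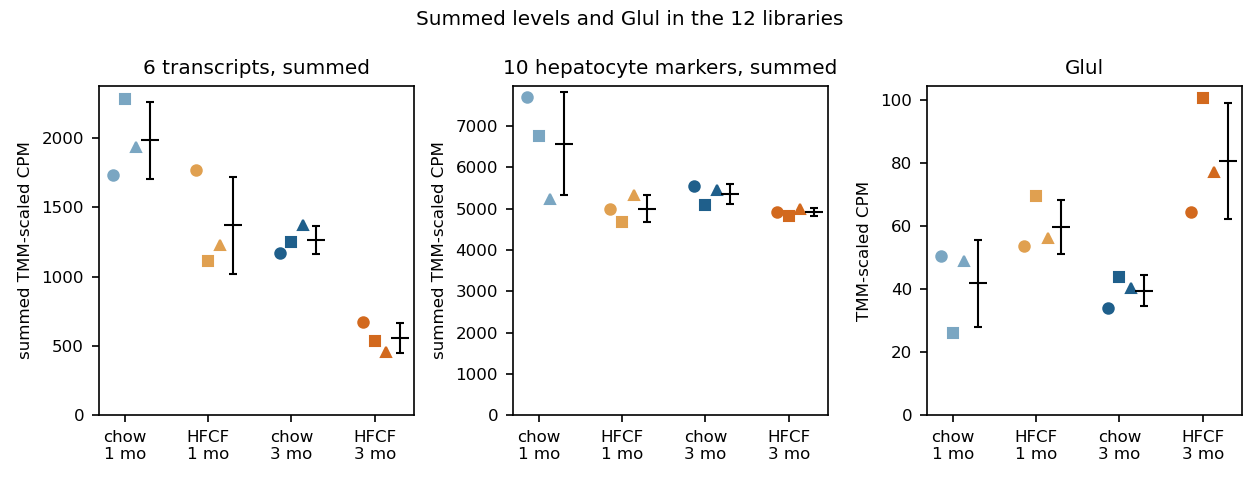
Summed level of the 6 transcripts, summed level of 10 hepatocyte markers and level of Glul in TMM-scaled CPM, by library, with mean ± SD (n = 3); symbols are replicates 1, 2 and 3. At 3 months the sum of the 6 was 456 to 671 CPM in HFCF and 1173 to 1372 CPM in chow, the marker sums were 4827 to 5002 and 5088 to 5541 CPM, and Glul was higher in HFCF.

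The 3-month diet difference minus the 1-month one is given here as a description, like the other values of the 6. It was -0.96 ± 0.32 for Cps1, -1.32 ± 0.40 for Got1, -1.07 ± 0.42 for Hal, -0.83 ± 0.34 for Tat, -0.35 ± 0.33 for Arg1 and 0.22 ± 0.30 for Tdo2. In edgeR's test 0% of the 1908 rows passed, with 171 rows at an unadjusted p under 0.05 and 0 rows passing in DESeq2 and in limma-voom. None of the 6 was among rows that passed. Leaving out HFCF replicate 1 at 3 months, the value of Got1 became -1.95 and 1 of the 6 passed. In that fit 4 of 2139 tested rows passed, and nothing is read from it. For Arg1 the sign of this term turned without TMM scaling.

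Time on chow went with lower values as well. From 1 to 3 months in chow the log2 change was -0.63 ± 0.22 for Cps1, -0.53 ± 0.23 for Arg1, -0.72 ± 0.26 for Got1, -0.88 ± 0.24 for Tat, -0.64 ± 0.21 for Tdo2 and -0.20 ± 0.27 for Hal. In 5 of the 6, all but Hal, the chow libraries of 3 months lay wholly below those of 1 month, where 9.17% of all tested rows did. In edgeR's test 0 of the 6 passed, 0.419% of rows passed as lower and 226 rows had an unadjusted p under 0.05. None of the 6 passed in DESeq2, and Tat passed without HFCF replicate 1 of 1 month. Tat and Tdo2 passed without chow replicate 3 of 1 month, where 44 of 2170 tested rows did, 22 of them lower. Tat passed as well without TMM scaling, over rows that overlap no small RNA gene and with only the libraries compared. In HFCF the corresponding changes were -1.59 ± 0.23 for Cps1, -0.88 ± 0.24 for Arg1, -2.05 ± 0.30 for Got1, -1.70 ± 0.25 for Tat, -1.27 ± 0.32 for Hal and -0.42 ± 0.21 for Tdo2. Here 5 of 6 lay wholly below, again where 9.17% of rows did, and the same number passed, where 2.1% of rows passed as lower; Tdo2 was the exception in both. Without HFCF replicate 2 or 3 of 3 months, 3 of the 6 passed: Cps1, Got1 and Tat. Without HFCF replicate 1 of 1 month Arg1 did not pass, and without replicate 2 Hal did not. Arg1 and Hal did not pass without TMM scaling or with scaling to the hepatocyte markers, and Arg1 did not with all genes in 1 fit or at the filter of 50 CPM. The comparisons share their libraries, so these values stand side by side and are not independent of each other.

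Across the 12 libraries the log2 levels of the 6 transcripts varied together. Pearson correlations of their 15 pairs ran from 0.77 (Tat with Hal) to 0.98 (Cps1 with Got1); the points share libraries, depth and the group differences above, and the values are a description. Of 953 rows considered, the most alike to Cps1 were Got1 (0.98), Arg1 (0.96) and Hpd (0.96). Those of Arg1 were Mat1a (0.97), Cps1 and Gfra1 (0.955). Got1 was most like Cps1, Hpd (0.97) and Mat1a (0.955). The 3 nearest Tat were Cth (0.96), Asl (0.95) and Gfra1 (0.95). Hal was nearest to Serpina1e (0.88), Got1 (0.87) and Cps1 (0.86), and Tdo2 to Fgb (0.93), Arg1 (0.93) and Ahsg (0.93).

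The other genes of these pathways are given from 9 lists of amino acid metabolism that name 75 genes besides the 6, of which 62 were in the table and 49 were tested. After 3 months 1 of the 49 rose and 0 fell, where 1.83% of all tested rows passed and 1.26% passed as lower. Of the 49, 34 had a value below 0, as did 49.4% of all tested rows, and their median log2 fold change was -0.30. After 1 month 0 rose and 1 fell, where 1.31% of all rows passed, and the median was -0.13. The urea cycle list had 6 other tested genes, and none of them passed at 3 months, at a median of -0.88 (all tested rows: 0.01). Asl, argininosuccinate lyase, had -0.82 ± 0.26 (edgeR adjusted p = 0.0986; it passed in 2 of 24 alternatives, where p ran from 0.0268 to 0.6), and Ass1, the synthase before it, -1.06 ± 0.40 (edgeR adjusted p = 0.21). The mitochondrial carriers Slc25a13 (aspartate and glutamate) and Slc25a15 (ornithine) had -0.99 ± 0.32 and -0.70 ± 0.28; Slc25a13 passed in 2 of 23 alternatives. Otc, which forms citrulline, was picked out after its values were seen. At 3 months its means were nearly equal, 16.0 CPM in chow and 16.1 CPM in HFCF. At 1 month they were 21.6 CPM in chow and 13.3 CPM in HFCF (log2 fold change -0.70 ± 0.32, edgeR adjusted p = 0.389). The 6 other tested urea cycle genes had a median of -0.56 at 1 month (all tested rows: -0.02), and none of them passed.

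Glul encodes glutamine synthetase, which fixes ammonia in the hepatocytes around the central vein, and it was the 1 listed gene that rose with the diet at 3 months. Its level was 34.0, 43.8 and 40.3 CPM in chow and 64.4, 100.6 and 77.1 CPM in HFCF. Every HFCF library was above every chow library, with a log2 fold change of 1.02 ± 0.26 (edgeR adjusted p = 0.0208, higher in 3 of 3 libraries). The Glul row overlaps the gene of the miRNA Mir8114 on an exon, and reads of the pair cannot be told apart here. Glul passed in 15 of 23 alternatives, with adjusted p from 0.00185 to 0.168, and did not pass without any 1 of chow replicates 1, 2 and 3 or of HFCF replicates 2 and 3 of that time. Nor did Glul pass without TMM scaling, with or without the mitochondrially encoded rows, or with all genes in 1 fit. Glul stands in the pericentral list, of which 1 of 7 tested genes rose; of 10 periportal genes beside Cps1, Arg1 and Hal, none passed, at a median of -0.10.

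Within the pathways that Tat, Tdo2 and Hal open, the values of the later steps stand side by side, and differences between them were not tested. In the tyrosine list Hpd and Fah, a middle and the last enzyme, had -0.65 ± 0.23 and -0.62 ± 0.29 at 3 months; none of the 6 tested genes passed. The 5 tested tryptophan genes had a median of -1.08 and none passed. Kynu, kynureninase, was at -1.31 ± 0.38 (edgeR adjusted p = 0.0614) and passed in 7 of 23 alternatives, rows that overlap no small RNA gene among them (0.0231 to 0.328 over the 23). Aadat, a kynurenine aminotransferase, was at -1.34 ± 0.48 and Afmid, the formamidase after Tdo2, at -1.08 ± 0.50. The 3 other histidine genes, Uroc1, Amdhd1 and Ftcd, had 0.17 ± 0.31, -0.17 ± 0.48 and -0.54 ± 0.36 beside the -1.60 of Hal, and none passed. From 1 to 3 months on HFCF, 4 of the 49 fell, where 2.1% of all tested rows passed as lower. They were Asl (-0.89 ± 0.25, edgeR adjusted p = 0.0322), Hpd (-0.88 ± 0.22, adjusted p = 0.0152), Kynu (-1.28 ± 0.36, adjusted p = 0.0339) and Aadat (-1.77 ± 0.42, adjusted p = 0.0102). In each of these 4 genes the 3-month HFCF libraries lay below those of 1 month in 3 of 3, as in 9.17% of all tested rows. In chow 1 of the 49, Aass of lysine breakdown, fell over that time (-1.03 ± 0.23, edgeR adjusted p = 0.0248), where 0.419% of all tested rows passed as lower.

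At 1 month Gldc, the glycine decarboxylase of the glycine cleavage system, was the 1 listed gene that passed. Its level was 14.6 to 25.3 CPM in chow and 3.06 to 12.1 CPM in HFCF, below chow in 3 of 3 libraries, with a log2 fold change of -1.51 ± 0.36 (edgeR adjusted p = 0.0157). Gldc passed in 15 of 23 alternatives, with adjusted p from 0.0074 to 0.212, and did not without chow replicate 1 or 2 or HFCF replicate 2 or 3 of that time. Nor did Gldc pass in DESeq2, with all genes in 1 fit, with scaling to the hepatocyte markers or with only the libraries compared. The branched chain, lysine and proline lists held no gene that passed between diets at either time; at 3 months their medians were 0.01, 0.01 and -0.28, with Ivd at -0.61 ± 0.39, Acadsb at -0.81 ± 0.36 and Prodh2 at -1.33 ± 0.53. Regulators of these genes did not pass either, 0 of 9 tested at both times; Cebpb had 0.85 ± 0.27 at 1 month (edgeR adjusted p = 0.124) and 0.29 ± 0.30 at 3 months, and Cebpa 0.66 ± 0.29 and 0.30 ± 0.31. Both passed at 1 month when scaled to the hepatocyte markers (edgeR adjusted p = 0.0158 for Cebpb and 0.0394 for Cebpa), a scaling that moved the median of all rows by 0.387.

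**Figure D4:**
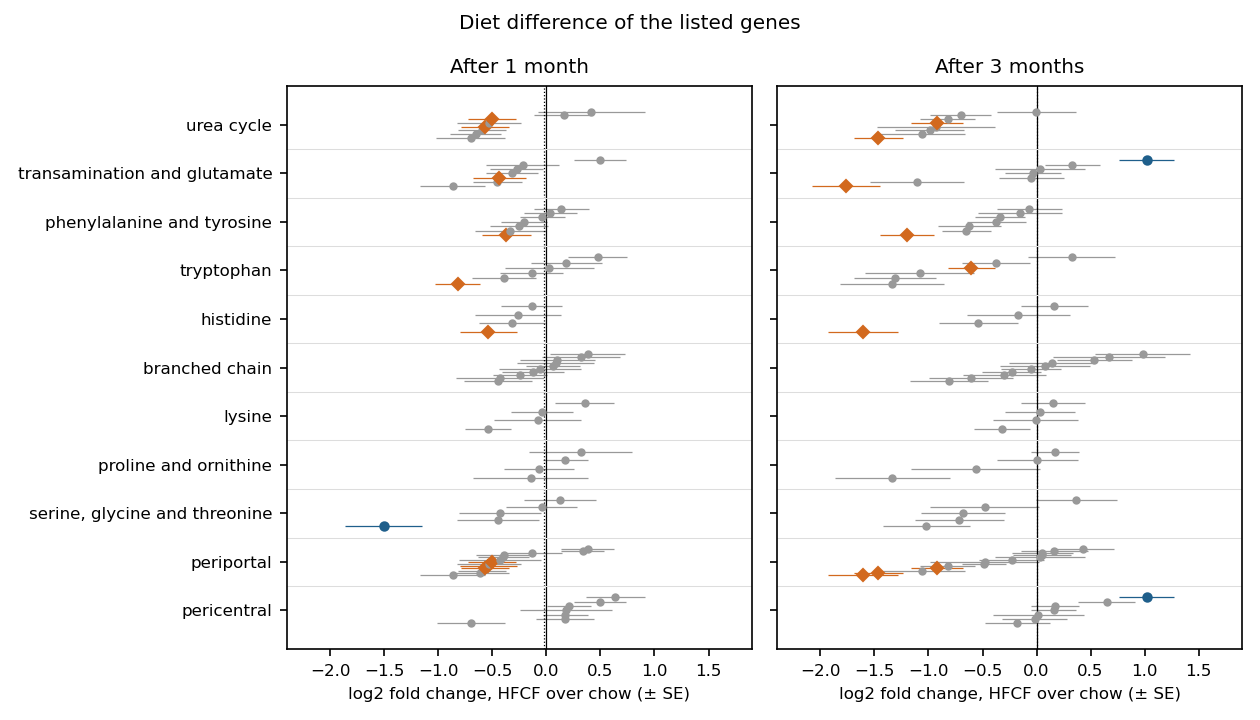
Log2 fold change, HFCF over chow, with SE for the tested genes of 9 amino acid lists and of the periportal and pericentral lists, at 1 month (left) and 3 months (right); diamonds are the 6 transcripts, blue points other genes with an adjusted p under 0.05 and the dotted line the median of all tested rows. The blue points are Gldc at 1 month (-1.51) and Glul at 3 months (1.02), which stands in 2 of the lists.

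Depth and library make-up were compared between the diets as well. Protein-coding rows took 24.98% ± 0.538 of the table counts in chow and 22.2% ± 1.91 in HFCF at 3 months (n = 3 each, two-sided exact permutation p = 0.1, the smallest that 3 against 3 allows), and 24.8% ± 1.36 against 24.6% ± 2.81 at 1 month (exact permutation p = 1). Rows that overlap no small RNA gene took 1.88% in chow and 2.11% in HFCF at 3 months (exact permutation p = 0.2). Mitochondrially encoded rows took 0.463% ± 0.0866 of protein-coding counts in chow and 0.608% ± 0.0943 in HFCF at 3 months (exact permutation p = 0.2) and 0.761% ± 0.204 against 0.534% ± 0.231 at 1 month (exact permutation p = 0.2).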

How the data were processed

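The 12 mouse liver libraries were analysed from the deposited table of whole-number read counts and FPKM values for 3717 genes, per the file headers. Reads had been placed on mm10 according to the submitters' processing notes. For the aligner, read counter and strand setting: not given in the sources used here. A small RNA library kit is named in the labels' protocol and a stranded total RNA kit in the design text, which these sources do not settle. All count and FPKM columns were mapped to samples by their labels, and 0 were left unused. The authors' deposited FPKM values served only to compare levels between genes. Of the identifiers, 3617 matched GENCODE M21; list genes were matched by the table's symbols. The members and the gene lists were chosen with earlier results of these data known.

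The deposited counts of protein-coding rows were fitted with edgeR 4.0.16 (R 4.3.3), with TMM scaling, the sum of protein-coding rows as library size, filterByExpr by group and robust quasi-likelihood, over all 12 libraries with 1 mean per group. P-values were adjusted by Benjamini-Hochberg over the 1908 rows tested, with a threshold of 0.05. Standard errors were taken as the size of the log2 fold change over the root of its F value. Log2 levels for correlations used a prior count of 2. Genes named beside the 6 are those of the lists that passed between diets, and otherwise up to 3 per list with the smallest p; others were chosen after their values were seen. Some genes that this rule names are not reported here. P-values measure the spread between these libraries, which the design text calls biological replicates. Replicates differed by more than sampling noise (chi-square over its degrees of freedom 2.09 to 28.6). DESeq2 1.42.0, limma-voom (limma 3.58.1), other scalings and filters, a replicate block and leaving out each library were alternatives. The scripts were tested on simulated data.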

Additional observations from a re-analysis of the deposited data

How the results depend on the processing

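All 6 transcripts had a value below 0 for HFCF over chow at 1 and 3 months under each alternative that gave one, but scaling to the hepatocyte markers brought the 1-month values to between -0.43 (Tdo2) and -0.01 (Tat); Hal was not tested at a filter of 50 CPM. Hal in chow over time and the change of the diet difference for Arg1 and Tdo2 took both signs. Counts of Got1 and Hal near 10 limit the precision of those values.

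The main fits called 25 rows at 1 month, 35 at 3 months, 0 for the change of the diet difference, 16 over time in chow and 53 over time in HFCF. Library totals without TMM gave 11, 12, 5, 23 and 21, as they did without the mitochondrially encoded rows, and moved the median of all rows by -0.33 at 1 month, 0.299 at 3 months, 0.635 for the change of the diet difference, -0.453 over time in chow and 0.169 over time in HFCF. That scaling left 2 of 11 calls higher at 1 month (main: 14 of 25) and 10 of 12 at 3 months (main: 11 of 35). Scaling to the 10 hepatocyte markers, chosen after seeing the data, gave 52, of them 51 higher, at 1 month, 21, of them 11 higher, at 3 months, and 35 over time in HFCF. A fit of all genes gave 8 at 1 month, 5 over time in chow and 34 over time in HFCF. The filter of 50 CPM gave 15, 2 and 34 in the same comparisons. DESeq2 gave 20 at 3 months and 2 over time in chow. Fits of only the libraries compared gave 6 at 1 month and 72 at 3 months; that setting has no form for the change of the diet difference. The cause was not tested. Leaving out 1 library gave 11 to 30 rows at 1 month, 15 to 43 at 3 months, 0 to 6 for the change, 1 to 44 over time in chow and 17 to 68 over time in HFCF.

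No pairing of libraries by replicate number was seen: same-numbered deviations correlated at -0.047 to 0.083, which does not exclude a pairing. The fit with the replicate block called 32, 42, 3, 8 and 62 rows.

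The difference in the protein-coding share turned from -0.188 to between -1.44 and 1.33 percentage points at 1 month when 1 library was left out (0.587 without chow replicate 1, 1.33 without HFCF replicate 3), and at 3 months ran from -3.47 to -1.70; over rows that overlap no small RNA gene it was 0.223 at 3 months. The mitochondrial share at 3 months turned to -0.185 over those rows.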
